A study of Mus musculus with 9 samples.

Results

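The 8 genes described here encode secreted growth factors that act on blood vessels: Vegfa, Vegfb, Vegfc and Pgf of the vascular endothelial growth factor family, the angiopoietins Angpt1 and Angpt2, and the fibroblast growth factors Fgf1 and Fgf2. They were found by symbol in a table of 41128 genes, each in a single row, and their levels in cardiomyocyte nuclei were compared between mice with and without cardiac stress. All 9 libraries hold nuclear RNA from PCM-1-positive nuclei, sorted from the left ventricle of FVB mice at postnatal day 12. PCM-1 lies at the nuclear membrane of cardiomyocytes, so sorting on it enriches for their nuclei. The cKO mice carried the genotype Fstl1KO/fl;Tie2-Cre, in which Cre driven by Tie2 deletes the floxed allele of Fstl1 in the endothelial and endocardial lineage, while the other allele is a knockout in every cell. Fstl1 encodes the secreted protein follistatin-like 1. cKO mice develop incompetent mitral valves, and the backflow of blood loads the left ventricle with volume. The 3 stressed cKO mice (S1 to S3, stress score 1) had an enlarged heart for their body weight, and the 3 unstressed cKO mice (U1 to U3, score 0) did not. The 3 control mice (C1 to C3) are wild type by their labels. The paper gives them a floxed Fstl1 allele and no Tie2-Cre. Every library stands for its own mouse by the mouse number in its label. U3 is a heterozygous cKO by its title and a cKO like the others by its genotype. By the paper the unstressed cKO mice were male and the control mice female, so that genotype and sex cannot be told apart between these groups.

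The growth factors named here reach the vessel wall from neighbouring cells. VEGF-A drives the sprouting of endothelial cells through its receptor KDR, and cardiomyocytes are known as a main source of it in the heart. VEGF-B and placental growth factor (Pgf) bind the receptor FLT1, and VEGF-C binds FLT4 on lymphatic endothelium. Angiopoietin 1 activates the receptor TEK and stabilises vessels, while angiopoietin 2, made mainly by endothelial cells, competes with it. FGF1 and FGF2 lack a classical signal peptide and bind heparan sulfate and FGF receptors on many cell types.

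Reads per library, recovered from the deposited normalized counts, numbered 10805513 to 12698502 in stressed cKO mice, 8804295 to 11341764 in the unstressed cKO group and 8262684 to 12597012 in control mice. The titin gene Ttn held 19.0 to 27.0% of reads, and mitochondrial ribosomal RNA 3.81% in S2, 3.84% in U3 and 0.941 to 1.15% in the 7 other libraries. The cardiomyocyte label was borne out by Tnnt2, the gene of cardiac troponin T, at normalized counts of 85478 to 142499 in the 9 libraries. The endothelial cadherin gene Cdh5 was at 142 to 346 and the fibroblast collagen gene Col1a1 at 354 to 668, so that transcripts of other cells were present at low levels. Fstl1 was at 97.4 to 145 in stressed cKO mice, at 69.6 to 125 in the unstressed cKO group and at 95.04 to 124 in control mice, with overlap of all 3 groups. Its log2 difference from control mice was 0.17 in stressed cKO mice (standard error, SE, 0.40, limma adjusted p = 0.955) and -0.16 in unstressed cKO mice (SE 0.40, limma adjusted p = 0.9995). Fstl1 was thus not detectably lower in cKO nuclei, although each cell is said to carry a knockout allele, and the sources used here do not say whether reads still arise from that allele. The level of Fstl1 therefore does not check the genotypes, and groups are named by their labels. The stress marker Nppa was at 29.9 to 208, 8.50 to 19.5 and 8.27 to 109 in the same 3 groups. The mouse numbers fall into 2 series, A with S1, S2, U1 to U3 and C1, and B with S3, C2 and C3. The sources used here do not say what the series stand for.

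Vegfa was by far the most abundant of the ligands. Per kilobase of exon, which allows genes of unequal length to be compared, its median over the 9 libraries was a normalized count of 5254 (range 3828 to 6243). It ranked 18 among the 13367 genes that passed a filter on low values and had an exon length. Vegfb followed with a median of 300.0 per kilobase (207 to 435) and rank 476. Fgf1 came next with 35.3 (17.1 to 49.8) and rank 5158. The order Vegfa, Vegfb, Fgf1, Angpt2 held in 9 of 9 libraries for each neighbouring pair. Angpt2, with a median of 12.1 per kilobase (3.30 to 27.8), was above Angpt1, with 6.38 (1.82 to 21.9), in 7 of 9 libraries. Angpt1 was above Pgf in 8 of 9 libraries. Pgf had a median of 1.22, Vegfc of 1.10 and Fgf2 of 0.138 per kilobase. Pgf was above Vegfc in 5 of 9 libraries and Vegfc above Fgf2 in 5 of 9, so that the order of these low genes changed between mice. Vegfa made up 91.6 to 94.7% of the sum of the 8 genes per kilobase in stressed cKO mice, 92.6 to 94.0% in the unstressed cKO group and 93.2 to 93.9% in control mice. These values describe RNA in the nucleus and not secreted protein, and the sources used here do not say whether reads in introns were counted.

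**Figure D1:**
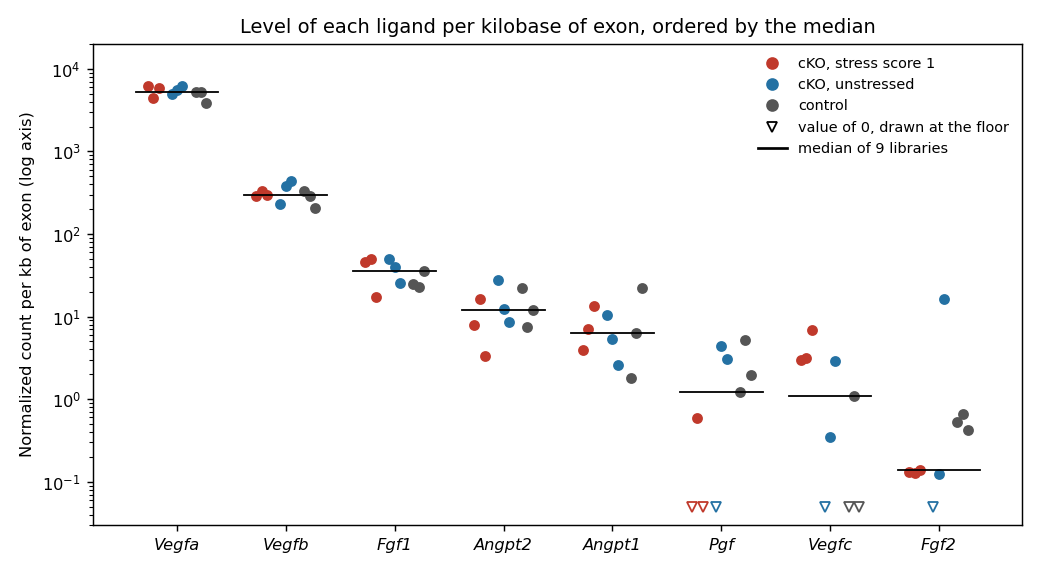
Each point is the normalized count of 1 library per kilobase of exon, on a log axis, for the 8 ligands ordered by their median over 9 libraries (black line). Vegfa lay at 3828 to 6243 and Vegfb at 207 to 435 in every group, while Pgf, Vegfc and Fgf2 included libraries at 0, drawn as open triangles at the floor of the axis.

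Normalized counts of Vegfc were higher in every stressed cKO mouse than in the 6 other mice, though S1 and U3 had 8 reads each. Promoter windows of Vegfa and Vegfb, the most abundant ligands, and of Vegfc are given to show the sequence next to each gene's start. Each is the 250 bases before the start site of a RefSeq transcript on build GRCm38.p6 (mm10), read 5′ to 3′ on the strand of the gene and free of annotated exons. Capitals mark the GC box GGGCGG, which Sp1 and related factors bind, and the core GCGTG of the hypoxia response element, each on either strand. The windows lie at chr17:46032378-46032627 on the minus strand for Vegfa, at chr19:6987652-6987901 on the minus strand for Vegfb and at chr8:54077282-54077531 on the plus strand for Vegfc. The windows of Pgf and Fgf2 overlap annotated exons, and those of the other ligands were not used here.
Vegfa: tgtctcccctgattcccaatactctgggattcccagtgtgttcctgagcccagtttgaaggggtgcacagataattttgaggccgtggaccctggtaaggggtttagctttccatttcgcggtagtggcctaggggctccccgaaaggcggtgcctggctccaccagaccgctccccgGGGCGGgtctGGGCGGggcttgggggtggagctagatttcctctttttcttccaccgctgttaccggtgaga
Vegfb: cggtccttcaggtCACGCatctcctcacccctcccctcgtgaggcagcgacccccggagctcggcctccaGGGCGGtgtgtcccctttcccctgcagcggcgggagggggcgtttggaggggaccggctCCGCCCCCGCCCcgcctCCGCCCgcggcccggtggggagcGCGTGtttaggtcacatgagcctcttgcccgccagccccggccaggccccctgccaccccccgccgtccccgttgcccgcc
Vegfc: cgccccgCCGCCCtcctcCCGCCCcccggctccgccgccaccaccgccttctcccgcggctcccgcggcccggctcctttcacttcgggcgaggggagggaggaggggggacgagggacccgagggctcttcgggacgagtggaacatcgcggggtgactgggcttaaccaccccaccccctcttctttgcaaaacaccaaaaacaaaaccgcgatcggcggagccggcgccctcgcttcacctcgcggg
All 3 windows held GC boxes, 2 in Vegfa, 4 in Vegfb (a pair of them adjoining) and 2 in Vegfc, while 32.74% of 32851 promoter windows of the same length held any. GCGTG was found at 2 positions in the window of Vegfb, 237 and 81 bases before the start, and neither it nor the other core of the element, ACGTG, was found in these windows of Vegfa and Vegfc. A second start of Vegfa in RefSeq has a window at chr17:46025164-46025413, which overlaps an exon of Vegfa and is not printed, and it held both cores, ACGTG at 211 and GCGTG at 218 bases before that start, and 1 GC box. Of all windows, 38.6% held at least 1 of these cores. TATAAA was in none of the 3 windows and in 12.37% of all windows. The GC content was 59.2% in Vegfa, 76.4% in Vegfb and 71.6% in Vegfc, against a median of 52.4%, and the windows held 11, 26 and 30 CpG in this order against a median of 6. These matches describe the letters of 1 window and do not show a bound site.

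None of the ligands passed the test between any groups of mice. The two-sided test was limma's on log2(normalized count + 1), a scale on which changes of low genes come out too small. It covered 13454 genes, those that reached 10 normalized counts in 3 or more libraries, and the threshold was a Benjamini-Hochberg adjusted p of 0.05. Vegfa, Vegfb, Angpt1, Angpt2 and Fgf1 passed this filter, and Vegfc, Pgf and Fgf2 did not. Of the 5 tested ligands, 0 passed between stressed cKO mice and control mice, where 0% of all tested genes did. The count was also 0 of 5 against unstressed cKO mice (0% of all genes), between unstressed cKO and control mice (0%) and between stressed cKO mice and the 6 other mice (0.00743%). At an unadjusted p under 0.05 it was again 0 of 5 in each of these comparisons, where 7.67%, 6.34%, 4.17% and 8.09% of all genes passed in this order. DESeq2, run on the recovered reads, called 0 ligands as well, where it called 0.19%, 0.178%, 0.0599% and 0.388% of the genes to which it gave an adjusted p. It gave none to Fgf2, none to Pgf between stressed and unstressed cKO mice and none to Vegfc between unstressed cKO and control mice. The values of the 5 tested ligands overlapped between the groups in all 4 comparisons, while 11.1%, 11.3%, 10.5% and 3.47% of tested genes did not overlap. Their median log2 difference was 0.18 between stressed cKO mice and control mice, against -0.01 for all tested genes. These comparisons share mice and are not independent of each other. A lower level can reflect fewer nuclei that express a gene or less RNA per nucleus, which cannot be told apart in pooled nuclei.

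**Figure D2:**
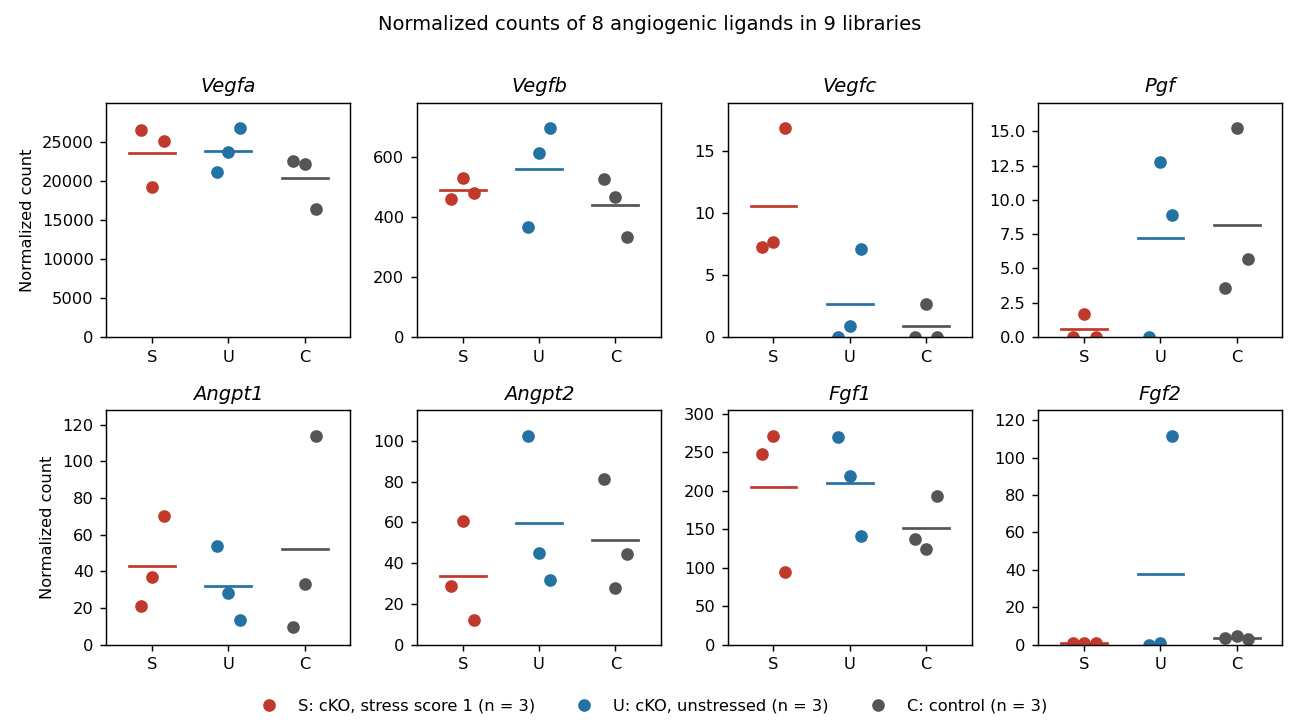
Each point is the normalized count of 1 mouse and each line the mean of 3 mice, for stressed cKO mice (S), unstressed cKO mice (U) and control mice (C), on an axis that starts at 0 for each gene. Values of Vegfa, Vegfb, Angpt1, Angpt2 and Fgf1 overlap between the 3 groups. Vegfc in S1 to S3 lies at 7.22 to 16.9 and above the 6 other mice, with S1 barely above U3 at 7.10 (8 reads each).

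Vegfa (ENSMUSG00000023951.11, chromosome 17 of mm10 from 46016993 to 46032369) had normalized counts of 26517, 19134 and 25023 in stressed cKO mice, 21077, 23732 and 26751 in unstressed cKO mice, and 22512, 22159 and 16404 in control mice. S2 was lowest among the stressed mice and C3 lowest of all, and the 3 groups overlapped. The log2 difference between stressed cKO mice and control mice was 0.21 (SE 0.20, limma adjusted p = 0.842), a fold of 1.16 with a 95% interval from 0.871 to 1.54. It was -0.03 against unstressed cKO mice (interval from -0.44 to 0.38 on the log2 scale) and 0.24 between unstressed cKO and control mice (-0.17 to 0.65). Without S2 the difference from unstressed cKO mice was 0.12. Within series A the difference between stressed and control mice was 0.00085 with 1 control mouse, and within series B it was 0.39 with 1 cKO mouse. Over the 9 libraries the coefficient of variation of Vegfa was 15.1%, and among the 74 genes with a mean of at least 10000 the median was 18.4% and 20 genes had a lower value. Vegfa thus varied less between mice than the median of these abundant genes.

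Vegfb (ENSMUSG00000024962.8, chromosome 19 from 6982473 to 6987651) had normalized counts of 462, 531 and 481 in stressed cKO mice, 367, 613 and 697 in unstressed cKO mice, and 527, 466 and 333 in control mice. The stressed mice lay close together and inside the range of the unstressed cKO mice. The log2 difference between stressed cKO mice and control mice was 0.18 (SE 0.28, limma adjusted p = 0.929), and without C3 it was -0.014. The ratio of Vegfa to Vegfb per kilobase was 13.5 to 21.5 in stressed cKO mice, 14.4 to 21.5 in the unstressed cKO group and 16.0 to 18.5 in control mice. The balance of these ligands thus overlapped between the groups as well.

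Vegfc (ENSMUSG00000031520.5, chromosome 8 from 54077606 to 54187096) was detected at a low level in each stressed heart. Its normalized count was 7.22, 7.69 and 16.9 in stressed cKO mice, 0, 0.850 and 7.10 in unstressed cKO mice, and 0, 2.69 and 0 in control mice. These values stand for 8, 9 and 18 reads in S1 to S3, 0, 1 and 8 reads in U1 to U3 and 0, 3 and 0 reads in C1 to C3. S1 to S3 lay above all 6 other mice, though S1 and U3 had 8 reads each and differed only by library scaling. In limma without a filter on low values, over 25815 genes, the log2 difference was 2.81 between stressed cKO mice and control mice (standard error 1.09, adjusted p = 0.874), 2.14 against unstressed cKO mice (adjusted p = 0.876) and 2.47 against the 6 other mice (adjusted p = 0.831). DESeq2 gave adjusted p-values of 0.608, 0.867 and 0.534 in the same order. No difference of Vegfc therefore passed the test, and at an unadjusted p under 0.05 between stressed cKO and control mice, which Vegfc and Pgf reached in this fit, 5.63% of all genes passed. As a ratio of reads scaled to library size, 35 reads in stressed mice and 3 in control mice gave 10.5, with a 95% interval for counting error alone of 3.31 to 53.4. Within series A the log2 difference was 3.08 with 1 control mouse, and within series B it was 3.22 with 1 cKO mouse. As stressed and control mice did not overlap, the direction could not differ between the series.

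Pgf (ENSMUSG00000004791.6, chromosome 12 from 85166635 to 85177790) lay the other way. It had normalized counts of 0, 1.71 and 0 in stressed cKO mice, 0, 12.8 and 8.87 in unstressed cKO mice, and 3.54, 15.3 and 5.70 in control mice. All stressed mice were below all control mice, but U1 was also at 0. The log2 difference between stressed cKO mice and control mice was -2.50 (SE 1.17, limma adjusted p = 0.887 without a filter, 0.637 from DESeq2), and neither test was passed. The 2 reads in stressed mice against 26 in control mice gave a ratio of 0.0693, with a 95% counting interval from 0.00797 to 0.277. At 1 or 2 reads per library such levels are at the limit of detection, and a value of 0 here can stand for a low level.

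Of the 3 ligands below the filter, the values of all 3 did not overlap between stressed cKO mice and control mice, 1 higher and 2 lower. Among the 12361 genes below the filter with a read in any library, 3.45% did not overlap in this comparison, 1.2% higher and 2.25% lower. These 12361 genes include ones with reads in too few libraries for the groups to separate, and they were not matched to the ligands by level. Against unstressed cKO mice it was 1 of 3 ligands (4.27% of genes, 1.34% higher), between unstressed cKO and control mice 0 of 3 (4.31%), and against the 6 other mice 1 of 3 (0.963%, 0.461% higher). Vegfc was the ligand that was higher without overlap in each comparison with stressed cKO mice. As S1 and U3 had 8 reads of it each, its separation from unstressed cKO mice and from the 6 other mice rests on library scaling.

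Angpt1 (ENSMUSG00000022309.8, chromosome 15 from 42424723 to 42676977) had normalized counts of 20.7, 36.8 and 70.2 in stressed cKO mice, 53.6, 28.1 and 13.3 in unstressed cKO mice, and 9.45, 33.2 and 114 in control mice. The control mice alone spanned the range of all other libraries. The log2 difference between stressed cKO mice and control mice was 0.17 (SE 0.81, limma adjusted p = 0.979), with DESeq2 at -0.30. It turned to -0.27 without S3 and to -0.69 without C1. Its 95% interval spans folds of 0.345 to 3.66, and a change within it was not detectable here.

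Angpt2 (ENSMUSG00000031465.6, chromosome 8 from 18690263 to 18741562) had normalized counts of 28.9, 60.7 and 12.2 in stressed cKO mice, 103, 45.1 and 31.9 in unstressed cKO mice, and 81.5, 27.8 and 44.7 in control mice. S3 was lowest and U1 highest, with overlap of all groups. The log2 difference was -0.72 between stressed cKO mice and control mice (SE 0.68, limma adjusted p = 0.847) and -0.90 against unstressed cKO mice (standard error 0.68, limma adjusted p = 0.871). Without S3 the first of these was -0.15. Angpt2 lies wholly inside Mcph1, a gene of the other strand at 141 to 372, and since the sources used here do not say whether strand was used in counting, reads of the 2 genes may not be told apart. The ratio of Angpt1 to Angpt2 per kilobase was 0.510, 0.429 and 4.09 in stressed cKO mice, 0.370, 0.441 and 0.295 in unstressed cKO mice, and 0.0822, 0.846 and 1.81 in control mice. The 3 groups overlapped, and the highest ratio was that of S3.

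Markers of endothelial and endocardial cells, in which angiopoietin 2 is mainly made, were read beside these values. The summed normalized count of 18 such genes, none of them at 0 in every library, was 1796 to 2735 in stressed cKO mice, 1923 to 2358 in the unstressed cKO group and 1545 to 1923 in control mice. Between stressed and control mice 14 of the 18 had a log2 difference above 0 and 4 below. The median was 0.44, and 0 passed limma. Cdh5, at 311 to 322 against 173 to 210.03 in control mice, was the only 1 with an unadjusted limma p under 0.05. Its values in the unstressed cKO group, 142 to 346, spanned both ranges. Pecam1 of the same list, at 164 to 227 against 169 to 204, overlapped between stressed and control mice (log2 difference 0.09). The sum of 12 fibroblast genes was 2309 to 3802, 2586 to 3234 and 2292 to 2843 in the 3 groups. That of 9 genes of smooth muscle cells and pericytes was 5693 to 12534, 9833 to 11546 and 10280 to 10828 in the same order. In that sum Acta2 alone was at 837 to 5046, 4117 to 6274 and 3477 to 4738. Myh11 was at 35.2 to 160, 56.1 to 106 and 17.1 to 77.2. The sum thus leans on single genes such as Acta2 and cannot be read as an amount of these mural cells, which are known to make Angpt1. What part these cells have in the levels of Vegfc, Pgf, Angpt1 and Angpt2 was not tested.

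Fgf1 (ENSMUSG00000036585.10, chromosome 18 from 38838673 to 38929472) had normalized counts of 247, 272 and 93.7 in stressed cKO mice, 270.5, 219 and 141 in unstressed cKO mice, and 137, 124 and 193 in control mice. S3 was the lowest of all libraries and S2 the highest. The log2 difference between stressed cKO mice and control mice was 0.31 (SE 0.41, limma adjusted p = 0.910), 0.91 within series A with 1 control mouse and -0.72 within series B with 1 cKO mouse. The series thus differed in direction, each with a single mouse on 1 side.

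Fgf2 (ENSMUSG00000037225.8, chromosome 3 from 37348346 to 37410108) was near the limit of detection in 8 libraries and high in U3. Its normalized count was 0.902, 0.855 and 0.937 in stressed cKO mice, 0, 0.850 and 112 in unstressed cKO mice, and 3.54, 4.49 and 2.85 in control mice. The stressed mice, with 1 read each, lay below all control mice. The log2 difference between them was -1.27 (SE 1.39, limma adjusted p = 0.901 without a filter), and the ratio of 3 to 11 reads was 0.246, with a 95% counting interval from 0.0440 to 0.930. Fgf2 overlaps Nudt6 of the other strand by 5199 bases, and Nudt6 was also highest in U3, at 131 against 19.0 to 49.6 in the 8 other libraries. The antisense gene Fgf2os overlaps Fgf2 by 1395 bases, and was at 17.7 in C1, 15.3 in C2, 0 in C3 and 0 to 3.61 in stressed cKO mice. Reads of Fgf2 cannot be told apart from those of Nudt6 and Fgf2os in these overlaps without strand. A level of at least 50 in 1 library with less than 10 in the 8 others was found for 7 genes in U3, and for 1 to 14 genes in each of the others.

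**Figure D3:**
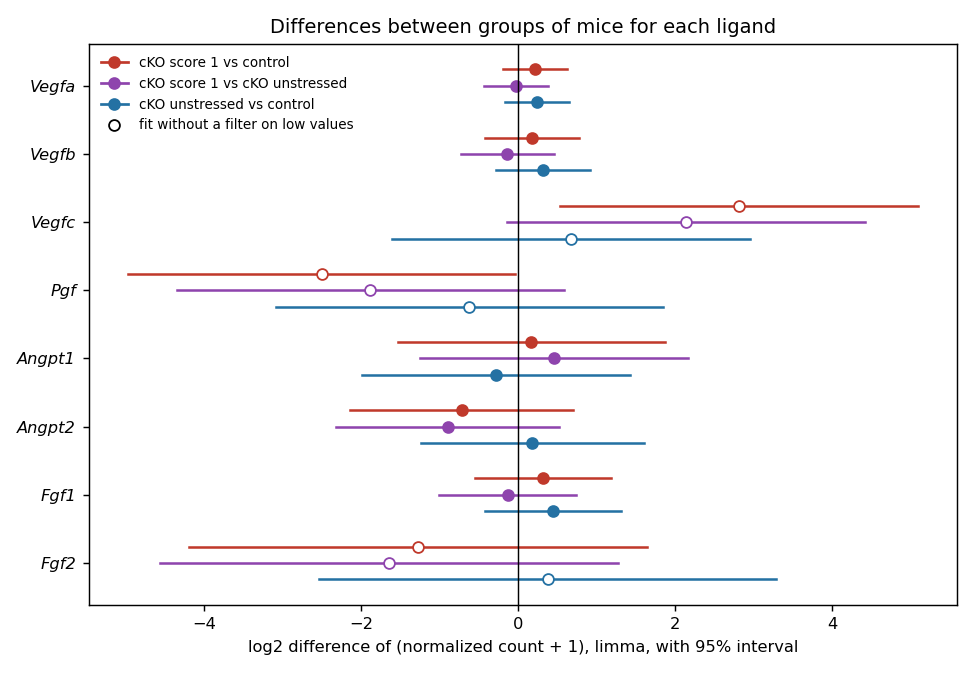
Points are limma's log2 differences of (normalized count + 1) and lines their 95% intervals, for 3 comparisons of the 8 ligands, with open points from the fit without a filter on low values. Intervals of the 5 tested ligands all include 0, and those of Vegfc (0.53 to 5.09) and Pgf (-4.97 to -0.04) between stressed cKO mice and control mice do not, with adjusted p-values of 0.874 and 0.887 from limma.

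For each tested ligand, the 2 genes whose log2 values followed it most closely over the 9 libraries were taken among 8282 genes with a mean normalized count of at least 50. For Vegfa these were Rragd (Pearson r = 0.944, Spearman rho = 0.933), which encodes a GTPase of nutrient sensing, and Perm1 (r = 0.925, rho = 0.967), which encodes a muscle regulator of oxidative metabolism. Perm1 was at 9133, 6035 and 7802 in stressed cKO mice, 5549, 7635 and 8140 in unstressed cKO mice, and 7150 (C1), 7092 (C2) and 5196 (C3) in control mice, so that S2 and C3 were the lowest of their groups as in Vegfa. Vegfb was followed by Capn15 (r = 0.912), a protease gene, and Pkm (r = 0.911), which encodes pyruvate kinase. Fgf1 was followed by Cpt1a (r = 0.946), which encodes the enzyme that brings fatty acids into mitochondria, and Ano6 (r = 0.933), a lipid scramblase gene. Angpt1 was followed by Pmvk (r = 0.943), a gene of sterol synthesis, and Sde2 (r = 0.920), and Angpt2 by Dfna5 (r = 0.962), which encodes gasdermin E, and Glt28d2 (r = 0.940). These are the highest values of many, the libraries share their normalization and groups, and no test was made.

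Genes that act with the ligands or control them were described in 10 lists with 159 genes, of which 135 were tested. Between stressed cKO mice and control mice 0 of the 135 passed limma, while an unadjusted p under 0.05 was reached by 10 that were higher (4.38% of all tested genes) and 5 that were lower (3.29%). Among 7 receptors and further members of the VEGF family the median log2 difference was 0.33, against -0.01 for all tested genes, with 7 of 7 above 0. That median is the value of a low gene (normalized counts of 0 to 32.3, SE 1.46). Against unstressed cKO mice 5 of the 7 were above 0 (median 0.17), and against the 6 other mice also 5 (median 0.25). Flt4, the receptor of VEGF-C, was at 85.7, 69.2 and 59.0 in stressed cKO mice, against 23.6, 40.4 and 35.2 in control mice. Its log2 difference was 1.10 (SE 0.53, limma adjusted p = 0.653), and unstressed cKO mice, at 38.8, 62.9 and 100.3, overlapped both groups. Kdr, the main receptor of VEGF-A, had a difference of 0.41 and its co-receptor Nrp1 one of 0.38, both with overlap between groups. These are also genes of endothelial cells, whose markers are given above.

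The other receptors and carriers did not pass the test either. The list of angiopoietin relatives and TIE receptors had a median log2 difference of 0.24 over 8 tested genes. Angptl4, which inhibits lipoprotein lipase, was at 0.71 and the integrin gene Itga5 at 0.31. Angptl1, a low gene with a mean normalized count of 8.72 in control mice, was at -1.60 (SE 1.13). Over 13 genes of the FGF family and its receptors the median was 0.31. Fgf6, a muscle FGF, was at 2.23 (SE 1.07) and Fgf14, which acts on sodium channels, at -1.79 (SE 1.08). The receptor gene Fgfr2 was at 1.86 (SE 1.38). Fgf6, Fgf14 and Fgfr2 are low genes, with mean normalized counts of 4.76, 10.9 and 3.59 in control mice. Over 15 genes of heparan sulfate carriers and modifiers the median was 0.31. Hspg2, which encodes the basement membrane proteoglycan perlecan, was at 26781, 18893 and 21812 in stressed cKO mice, against 17039, 17719 and 13845 in control mice, without overlap (log2 difference 0.47, SE 0.19, with an adjusted p = 0.598 in limma). Unstressed cKO mice, at 20522, 19062 and 23097, also lay above all control mice and overlapped the stressed mice. Agrn, which encodes agrin, was at 0.57 and Ext1, an enzyme of heparan sulfate synthesis, at -0.38 on this scale of differences.

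Among 20 other secreted angiogenic factors the median log2 difference between stressed cKO mice and control mice was 0.07. Ccn2, the gene of connective tissue growth factor, was at 687, 249.6 and 334 in the stressed mice, against 81.5, 81.6 and 303 in control mice (log2 difference 1.60, SE 0.47, with an adjusted p = 0.474 in limma). Egf had a difference of 0.73. Among 17 antagonists of angiogenesis the median was 0.52, with 11 above 0 and 6 below. Thbs1, which encodes thrombospondin 1, was at 172, 550.4 and 54.3 in stressed cKO mice, against 16.5, 104 and 32.3 in control mice (log2 difference 2.14, SE 0.69, with an adjusted p = 0.477 in limma), and without S2 the difference was 1.31. Unstressed cKO mice, at 143, 104.6 and 114, also lay above all control mice and overlapped the stressed mice. Spry4, an inhibitor of signalling by growth factor receptors, had a difference of 1.63 and the protease gene Adamts1 one of 1.10.

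Regulators of Vegfa were listed as hypoxia-inducible factors (HIF) with oxygen sensors, as other HIF targets and as other inducers. Egln3, a prolyl hydroxylase that marks HIF for decay, was at 38.8, 65.0 and 98.3 in stressed cKO mice, 205, 170.1 and 175 in unstressed cKO mice, and 252, 178 and 279 in control mice (log2 difference from control mice -1.87, SE 0.39, with an adjusted p = 0.276 in limma, 0.0263 from DESeq2). Against the 6 other mice the difference of Egln3 was -1.69, without overlap (SE 0.34, with an adjusted p = 0.139 in limma, 0.00119 from DESeq2, which called 0.388% of genes in this comparison). Hif1a was at 1785, 1168 and 1228, against 863, 743 and 1014 in control mice (log2 difference 0.66, adjusted p = 0.576 from limma), and Hif3a, which encodes a HIF subunit that can oppose the others, had a difference of -1.81 (adjusted p = 0.553). Neither Hif1a nor Hif3a passed limma or DESeq2. Over 21 tested HIF targets other than the ligands the median log2 difference was -0.36, with 8 above 0 and 13 below, and against unstressed cKO mice it was -0.40, with 3 above 0 and 18 below. In the comparison with control mice Pdk1, which encodes an inhibitor of pyruvate dehydrogenase, was at -0.73. The mitochondrial protein gene Higd1a was at -1.29 and the collagen hydroxylase gene P4ha2 at 0.54. Over 14 other inducers of Vegfa the median was 0.20, with 11 above 0. Ppargc1a, a coactivator that raises Vegfa in muscle, had a difference of -0.83 that was -0.29 without C2, where it was highest, and -0.38 without S2, where it was lowest. Esrrg, a nuclear receptor that works with it, had a difference of 0.57 and the cardiac transcription factor gene Gata4 of 0.46. None of these 3 inducers passed limma or DESeq2, and neither did Vegfa itself.

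Genes known to respond to load on the heart were listed to read the ligands against. Over 8 of them the median log2 difference between stressed cKO mice and control mice was 0.58, with 7 above 0 and 0 called by limma. Acta1, the skeletal actin gene re-expressed under load, was at 3233, 1001 and 929 in the stressed mice, against 701, 473 and 408 in control mice. Its log2 difference was 1.49 (SE 0.41, limma adjusted p = 0.474, 0.0313 from DESeq2), and it was 0.91 without S1. Unstressed cKO mice, at 575, 1483 and 1293, overlapped both groups. Acta1 had a log2 difference of 0.48 between stressed and unstressed cKO mice and 1.01 between unstressed cKO and control mice. Against control mice Ankrd1, a stretch-sensing protein gene of the sarcomere, had a difference of 0.77 and Rcan1, a target of calcineurin, of 0.64. In this comparison with control mice the median size of the difference, regardless of sign, was 0.21 for the 5 tested ligands and 0.38 for all tested genes. These genes were not matched to the ligands by level, and the value of 0.21 is that of Vegfa. Vegfc, Pgf and Fgf2, below the filter, had larger differences in the fit without it and are not counted.

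**Figure D4:**
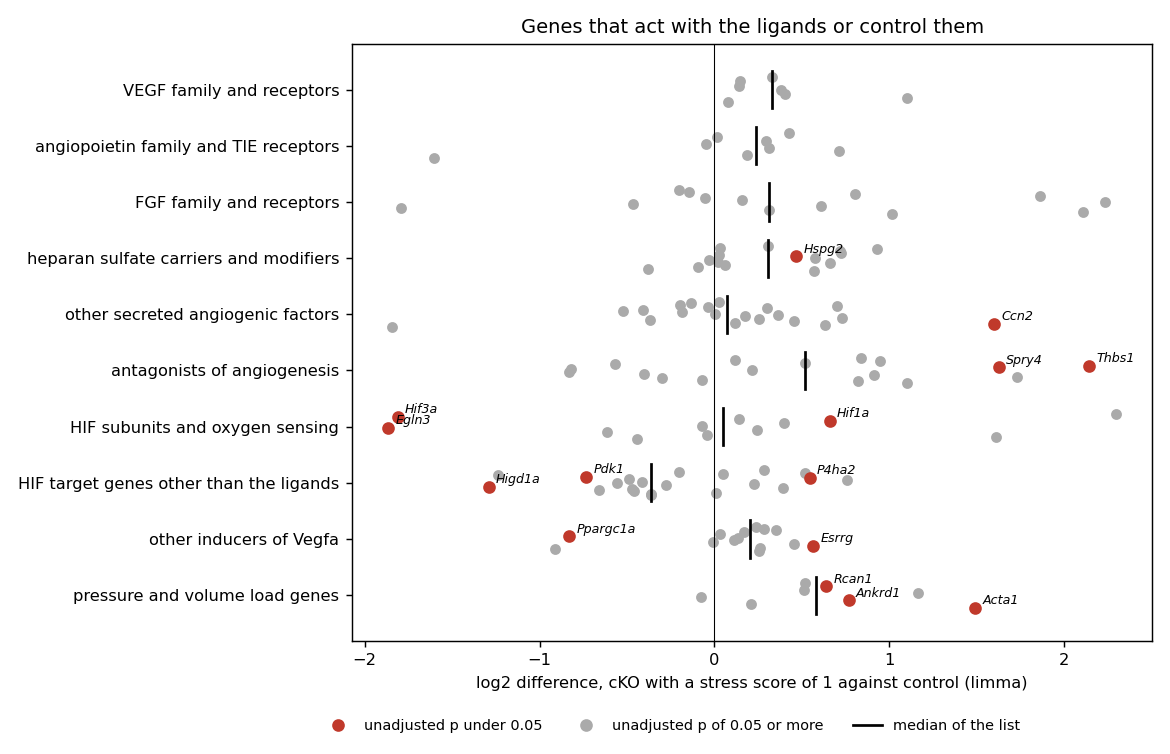
Each point is limma's log2 difference of 1 tested gene between stressed cKO mice and control mice, in 10 lists of genes that act with the ligands or control them, with red for an unadjusted p under 0.05 and a black line at the median of each list. The median is 0.33 for the VEGF family and its receptors, -0.36 for HIF targets and 0.58 for genes of cardiac load, and none of the 135 genes passed limma at an adjusted p of 0.05.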

How the data were processed

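The authors mapped single reads of amplified nuclear RNA to mm10 with STAR and deposited a normalized signal, in which the reads of a gene are divided by the DESeq2 size factor of the library. The sources used here name no versions, annotation, counting program or strand setting. All values above 0 were whole multiples of 1 read (tolerance 0.001), so reads were recovered. Positions and exon lengths came from GENCODE M21. limma 3.58.1 (R 4.3.3) was run with a variance trend on log2(normalized count + 1) over 13454 genes, with the 3 groups in 1 fit (6 residual degrees of freedom) and stressed cKO mice against the 6 others in another (7 residual degrees of freedom). Ligands below the filter were read from the fit of 25815 genes without it. DESeq2 1.42.0 and edgeR 4.0.16 used recovered reads. Counting intervals are exact and cover counting error only. The scripts were tested on simulated data.

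Named genes are the 8 ligands, the 3 of each list with the smallest limma p between stressed cKO and control mice, the 2 most similar genes per tested ligand, and label and cell type markers. A gene that this rule also selects is not reported here. The ligands and lists were chosen with earlier results of these data known. Libraries of 1 group differed beyond sampling noise (chi-square per degree of freedom 22.0 to 68.9), so none is a copy. The labels name separate mice but nothing on litters or preparation, so p-values measure the spread between these samples.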

Additional observations from a re-analysis of the deposited data

Results flagged for a closer look

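Of 38 ligands and partner genes checked within the 6 mice that are not stressed cKO mice, 3 had 1 library far from the 5 others by Dixon's test, which chance alone gives in about 1 of 20 groups. Fgf2 was at a normalized count of 112 in U3, where its antisense neighbour Nudt6 was also highest. Egf was at 178 in U1. Ppargc1a, a coactivator of mitochondrial genes, was at 47574 in C2.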

How the results depend on the processing

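The count of ligands called was 0 in all 39 values that other settings gave over the 4 comparisons and in all 36 values that left out 1 mouse. Of all genes, limma and edgeR called at most 4 higher and at most 4 lower in any of these fits. A count of 0 was thus likely for any few genes and does not show stability. Other settings were pseudocounts of 0.5 and 10, other filters, quantile and TMM scaling, DESeq2, edgeR, the mouse number series as a covariate and, except against the 6 other mice, fits of the 2 groups alone. The direction was kept in 222 of 231 values for single ligands. Between stressed cKO mice and the 6 other mice Vegfb had a log2 difference of -0.051 after quantile normalization, -0.027 by DESeq2 and -0.035 by edgeR. Between stressed cKO and control mice Angpt1 was at -0.30 by DESeq2 and -0.32 by edgeR. With the series as a covariate Angpt1 was at -0.20 between stressed and unstressed cKO mice and at 1.01 between unstressed cKO and control mice, Angpt2 at -0.78 in the second of these and Fgf1 at 0.079 in the first. The cause of these changes was not tested.

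Leaving out 1 mouse turned the direction in 25 of 288 values. Between stressed cKO and control mice, log2 differences then ranged from -0.014 to 0.32 for Vegfb and from -0.69 to 1.04 for Angpt1. Between stressed and unstressed cKO mice they ranged from -0.12 to 0.12 for Vegfa, -0.41 to 0.047 for Vegfb, -0.038 to 0.93 for Angpt1, -0.41 to 0.35 for Fgf1 and -2.93 to 0.48 for Fgf2, the highest of these without U3 for Fgf2. Between unstressed cKO and control mice they ranged from -1.15 to 0.58 for Angpt1, -0.29 to 0.57 for Angpt2, -0.18 to 1.32 for Vegfc, -1.33 to 0.56 for Pgf and -1.75 to 1.66 for Fgf2. Against the 6 other mice they ranged from -0.088 to 0.13 for Vegfb, -0.13 to 0.73 for Angpt1 and -0.19 to 0.57 for Fgf1. Vegfc and Pgf did not overlap between stressed cKO and control mice, so leaving out 1 mouse could not turn their direction there. The fits of Vegfc, Pgf and Fgf2 that left out 1 mouse had no filter and were added after the data were seen.

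Of 294 values for partner genes by other settings 2 passed the threshold, Egln3 and Acta1 by DESeq2, and no direction turned. Per kilobase of the longest transcript the medians of Vegfa, Vegfb and Fgf1 were 6523, 376 and 48.4. At 3 mice per group, intervals of the tested ligands span several-fold changes for Angpt1 and Angpt2, and depth limits Vegfc, Pgf and Fgf2. No paired analysis was possible because the labels give mouse numbers and no replicate number shared between groups.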

Other observations

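Besides Egln3, described above, a pair of listed genes is given here for comparisons other than that of stressed cKO with control mice. Itga5, which encodes a chain of the fibronectin receptor, was at 4070, 3051 and 3023 in stressed cKO mice, against 1661, 1617 and 2071 in unstressed cKO mice, without overlap (log2 difference 0.92 with a standard error of 0.23, and adjusted p-values of 0.557 from limma and 0.0638 from DESeq2). Control mice, at 2043, 3666 and 2622, overlapped both groups. P4ha2, a collagen hydroxylase gene, was at 1488, 889 and 987 in unstressed cKO mice, against 727, 525 and 523 in control mice (log2 difference 0.90, standard error 0.25, adjusted p = 0.9995 from limma). Neither of these differences passed limma or DESeq2.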
